A study of Homo sapiens and Mus musculus with 20 samples.

Results

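NF-kB is a family of dimeric transcription factors that IκB proteins hold in the cytoplasm of resting cells. Signals from cytokine and microbial receptors activate the IκB kinase, IκB is degraded, and the freed dimers bind κB sites at genes for chemokines, for survival factors and for their own inhibitors. In the colon epithelium these genes link microbial and inflammatory signals to the recruitment of neutrophils and lymphocytes. Chromatin accessibility was described here at 10 such genes, namely the chemokine ligands CXCL1, CXCL2, CXCL3, CXCL8 and CCL20, the inhibitors NFKBIA and TNFAIP3, the subunit RELB, the survival factor BIRC3 and the epithelial cytokine IL18. A region was assigned to a gene when it lay in its GENCODE gene body or within 20 kb on both sides, which gave 71 of the 252173 regions merged over 12 peak lists.

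SW480 is a human colorectal adenocarcinoma cell line, and ATAC-seq inserts sequencing adapters into open chromatin with the Tn5 transposase. The 12 libraries formed 2 experiments, each with 3 treated and 3 untreated libraries of its own, and with a different date in the labels. Treated cells had sodium propionate (NaPr) at 10 mM in the first experiment and sodium butyrate (NaBu) at 1 mM in the second, for 12 to 16 h per the treatment protocol, and untreated cells had 0 mM; the design text of the series names these doses in the opposite order. Both compounds are salts of short-chain fatty acids made by gut bacteria, and propionate has a chain shorter by a single carbon. As the doses and dates differed, the values for NaPr and NaBu are given side by side and were not compared. Each library was prepared from 50000 viable cells of an established line, and nothing in the labels says whether the replicates were separate cultures, so p-values measure the spread between these libraries.

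The strength of a region was its percentile rank within a library by the −log10 p of its highest peak, from 0 for a region with no peak listed to 100 for the strongest, among the 167303 regions with a peak in at least 2 of the 12 lists. A rank of 0 says only that no peak was listed. Ranks do not move when all peaks of a library change alike. A region can thus fall in rank because it gained less than others. A difference is the mean rank of the treated libraries minus that of the untreated ones, in percentile points with its standard error (SE). It was called at a Benjamini-Hochberg adjusted p under 0.05 in limma, fitted to every region with a peak in at least 2 of the 6 libraries of an experiment. The number of sequence tags at each summit could also be recovered from the listed fold enrichment and p, and gave a second scale, log2 of the tags over the background of the list. Of the 71 regions, 17 had a peak in 1 library only and 54 could be ranked. The NaPr test covered 33 of them and the NaBu test 48, with 29 in both, and 19 had a peak in all 12 lists.

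Between 112145 and 144398 peak intervals were listed per NaPr-experiment library and between 108442 and 128955 per NaBu-experiment library. Depth, read from the lowest background tags in each list, differed between the experiments, from 0.936 to 2.35 tags for NaPr and from 2.11 to 3.03 for NaBu, and replicate 1 of both NaPr groups was the shallowest. Of 11 colon epithelium markers, 9 had a peak at their start in every list, EPCAM, CDH1, CDX2 and VIL1 among them, and CDX1 had none. PTPRC, CD3E, COL1A1, PECAM1 and CDH5, which mark immune, stromal and endothelial cells, had no peak at their start in any list, whereas CD14 and COL1A2 had one in all.

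The promoters of these genes are shown first because the start regions are measured over them. RefSeq promoters (GRCh38.p14), from 250 bases before to 50 after the start, were at hand for 8 of the 10 genes, all identical to hg38 at their coordinates, and none was at hand for RELB and IL18. The κB consensus was searched by name on both strands, and it matched in 7 of the 8 (87.5%) and in 5.91% of all 35116 promoters. The AP-1 consensus (TGAGTCA or TGACTCA, the same motif read on either strand) matched in 1 of the 8, at −137 of CXCL8, and in 4.95% of all promoters. A match is a description of letters and not a binding site. The 100 bases from −140 to −41 of the 7 promoters with a κB match are printed 5′ to 3′ in the direction of the gene, with κB matches in capitals.
CXCL1, chr4:73869253-73869352, plus strand: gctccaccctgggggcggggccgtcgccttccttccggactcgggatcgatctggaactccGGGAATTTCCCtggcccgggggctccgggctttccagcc
CXCL2, chr4:74099236-74099335, minus strand: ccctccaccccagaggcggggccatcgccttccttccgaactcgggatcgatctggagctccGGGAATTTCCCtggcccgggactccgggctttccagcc
CXCL3, chr4:74038730-74038829, minus strand: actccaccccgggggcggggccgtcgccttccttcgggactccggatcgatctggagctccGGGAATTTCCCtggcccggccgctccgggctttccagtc
CCL20, chr2:227813702-227813801, plus strand: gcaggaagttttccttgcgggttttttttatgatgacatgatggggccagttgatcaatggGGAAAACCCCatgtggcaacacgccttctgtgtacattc
NFKBIA, chr14:35404790-35404889, minus strand: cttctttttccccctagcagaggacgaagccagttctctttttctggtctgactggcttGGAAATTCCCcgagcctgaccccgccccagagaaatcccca
TNFAIP3, chr6:137867119-137867218, plus strand: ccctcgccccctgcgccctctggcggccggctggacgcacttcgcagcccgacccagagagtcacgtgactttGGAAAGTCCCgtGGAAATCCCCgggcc
BIRC3, chr11:102317344-102317443, plus strand: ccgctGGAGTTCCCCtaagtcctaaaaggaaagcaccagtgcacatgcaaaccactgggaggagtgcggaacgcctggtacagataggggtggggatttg

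In CXCL1, CXCL2 and CXCL3 2 overlapping matches made the run of 11 bases in capitals, which began at −79, −78 and −79. CXCL1 and CXCL2 shared a run of 42 identical bases in their promoters, and all 3 shared a run of 23. Compared without gaps, the promoters of CXCL1 and CXCL2 matched at 51.7% of bases. The value was 68.7% for CXCL1 and CXCL3 and 48.3% for CXCL2 and CXCL3. The split of reads among these promoters was not measured and is uncertain. CCL20 and NFKBIA held a single match, at −79 and −81, TNFAIP3 held a pair at −67 and −55, and BIRC3 held one at −135 and another at −199, outside the printed stretch.

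The 200 bases around the highest summit are shown for the regions with the largest called gain under NaPr, the largest called gain and the largest called loss under NaBu, all 3 with a rank of 0 for each library without a peak, and the 2 regions away from a start that were called in both experiments. They are printed 5′ to 3′ in the direction of the named gene (hg38), and an AP-1 match is in capitals.
28.8 kb downstream of the BIRC3 start, chr11:102346153-102346352, plus strand: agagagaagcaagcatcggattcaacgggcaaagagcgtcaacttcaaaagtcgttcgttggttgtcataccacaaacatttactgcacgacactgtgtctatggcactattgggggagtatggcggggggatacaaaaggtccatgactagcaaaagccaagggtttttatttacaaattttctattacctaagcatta
8.8 kb downstream of the CCL20 start, chr2:227822548-227822747, plus strand: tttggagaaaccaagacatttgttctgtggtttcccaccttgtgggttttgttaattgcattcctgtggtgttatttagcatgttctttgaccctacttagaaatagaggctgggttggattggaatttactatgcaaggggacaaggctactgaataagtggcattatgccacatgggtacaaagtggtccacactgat
9.9 kb upstream of the BIRC3 start, chr11:102307501-102307700, plus strand: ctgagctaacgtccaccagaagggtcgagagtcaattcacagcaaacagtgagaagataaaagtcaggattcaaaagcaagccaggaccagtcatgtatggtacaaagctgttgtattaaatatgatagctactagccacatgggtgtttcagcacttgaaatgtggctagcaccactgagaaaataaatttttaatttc
11.0 kb upstream of the BIRC3 start, chr11:102306348-102306547, plus strand: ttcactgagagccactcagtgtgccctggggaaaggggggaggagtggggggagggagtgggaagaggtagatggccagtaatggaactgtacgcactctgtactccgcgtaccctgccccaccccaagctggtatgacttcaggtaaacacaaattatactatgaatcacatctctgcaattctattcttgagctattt
6.6 kb downstream of the IL18 start, chr11:112157389-112157588, minus strand: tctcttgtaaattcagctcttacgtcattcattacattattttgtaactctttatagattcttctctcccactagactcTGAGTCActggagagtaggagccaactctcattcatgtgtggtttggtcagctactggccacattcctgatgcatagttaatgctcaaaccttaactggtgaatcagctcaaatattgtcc

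Only the IL18 window among these 5 held an AP-1 match, and none held a κB match. Over the 54 ranked regions, κB matched in the 200 bases around the summit of 3 (5.56%), the start regions of NFKBIA, TNFAIP3 and BIRC3, and in 3.31% of all 167303 regions. AP-1 matched in 11 of 54 (20.4%) and in 15.3% of all. None of the regions away from the starts held a κB match in this window.

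Under NaPr, 4 member regions rose in rank, at CXCL1, BIRC3 (2 regions) and IL18, and 1 fell, at the start of TNFAIP3. That was 12.1% higher and 3.03% lower of the 33 tested, beside 5.16% higher and 4.1% lower among all 124067 regions. The upstream CXCL1 region and the BIRC3 region 28.8 kb from its start, 2 of the 4, had no peak without NaPr and entered the test only through their 3 treated libraries, so they had to differ and the size was set by the rank of 0. With a peak required in all 6 lists, 2 of 19 member regions rose and 2 fell (10.5% each), beside 6.87% and 7.35% of all 65178 such regions. An unadjusted p under 0.05 was found for 10 of the 33 (30.3%), against 23.2% of all. On the tag scale, among the 19 member regions with a peak in all 6 lists, 5 rose and 0 fell with the background as the scale (26.3% and 0%, beside 13.5% and 1.1% of all regions). With the median tags as the scale 5 rose and 5 fell (26.3% each, beside 12.2% and 19.9% of all). The median change of all regions on these scales was 0.21 and −0.05.

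Under NaBu, 7 member regions rose in rank, at CXCL2, CCL20 (3 regions), BIRC3 (2 regions) and IL18. Another 6 fell, at the starts of CXCL1 and TNFAIP3, at 2 regions around BIRC3 and at 2 inside IL18. That was 14.6% higher and 12.5% lower of the 48 tested, beside 17.1% higher and 14.5% lower among all 123730 regions, so the shares of the members were near those of all regions. The gain 8.8 kb from the CCL20 start and the loss 9.9 kb from the BIRC3 start entered the test through the higher group alone. With a peak required in all 6 lists, 8 of 38 rose and 8 fell (21.1% each), beside 19.5% and 19.7% of all 72559 such regions. On both tag scales 9 member regions rose and 14 fell of 38 with a peak in all 6 lists (23.7% and 36.8%). Of all regions 24% rose and 28.8% fell with the background as the scale, and 24.4% and 28.6% with the median. The 9 that rose on the tag scale lay away from any start, and 7 of the 14 that fell held the start of a protein-coding gene.

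Of the 29 regions tested in both experiments, 3 were called in both, and each had the same sign in both (10.3%). Of all 83651 regions tested in both, 4698 were called in both (5.62%), and 96.8% of those had the same sign. The 3 member regions were the TNFAIP3 start region, which fell, and the regions 11.0 kb upstream of BIRC3 and 6.6 kb inside IL18, which rose. No called region changed sign under any alternative tried.

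Regions at starts and regions elsewhere differed in their background, so each is read against its own kind. All 12810 start regions of protein-coding genes in the NaPr test had a median change of −0.75 points, with 1.02% higher and 8.47% lower. In the NaBu test the 12597 start regions had a median of −1.02, with 5.54% higher and 21.8% lower. The 10 start regions in the member windows under NaPr, neighbours CLASRP, BIRC2 and BCO2 included, had a median of −1.12 with 0 higher and 1 lower, and the 11 under NaBu had a median of −1.59 with 0 higher and 2 lower. The region nearest to the IL18 start does not hold that start and is not among them. On the tag scale with the background, 7 of these 11 fell under NaBu (63.6%), beside 60.3% of all start regions. The median log2 change on that scale was −0.40 at these 11 and −0.33 at all start regions. The tag changes of single starts under NaBu given below are to be read beside this median. Under NaPr, all regions that hold no protein-coding start had a median log2 change of 0.28 over background and 0.02 over the median tags. The NaPr tag gains given below are to be read beside these values. The shares at the members' starts were close to those at all starts. Of member regions that hold no protein-coding start, 4 of 23 rose under NaPr (17.4%) and 0 fell. Of all 111257 such regions 5.64% rose and 3.6% fell, and 2 of the 4 entered the test through their treated libraries alone. Under NaBu 7 of 37 rose (18.9%) and 4 fell (10.8%), close to the 18.4% and 13.7% of all 111133.

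**Figure D1:**
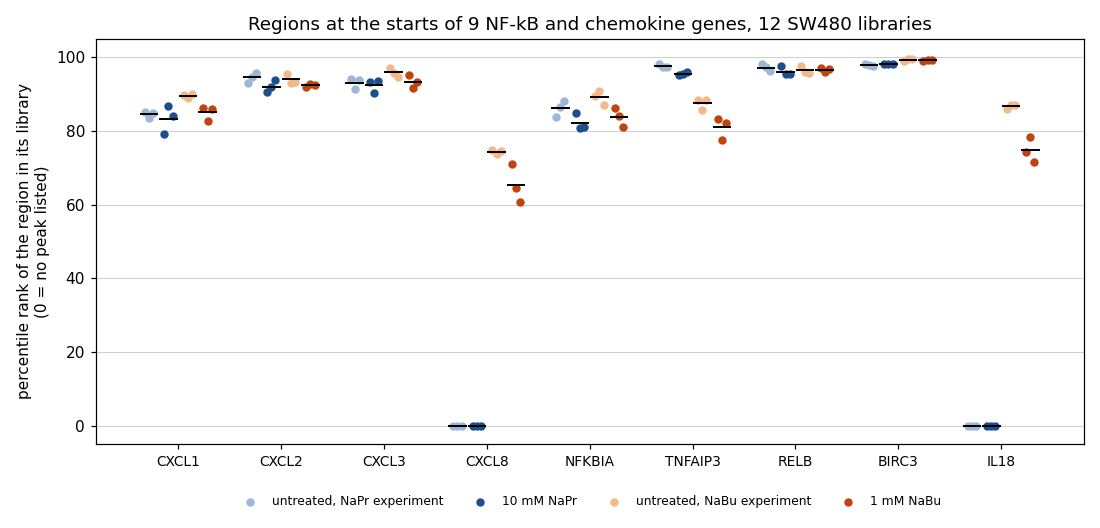
Percentile rank (vertical axis, 0 for no peak listed to 100) of the region at the start of 9 member genes in each of the 12 SW480 libraries; every point is a library, black lines are group means of 3, and colours are the 4 groups. For IL18 the region nearest to the start, 384 bases away, is shown. CXCL8 and IL18 had no peak in these regions in any NaPr-experiment list. In the NaBu experiment the treated libraries of CXCL1, CXCL2, CXCL8, NFKBIA, TNFAIP3 and IL18 lay below all untreated ones, and CXCL1, TNFAIP3 and IL18 were called.

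The chemokines CXCL1, CXCL2, CXCL3 and CXCL8 attract neutrophils through CXCR1 and CXCR2 and lie together within 358.678 kb of chromosome 4. CXCL1 (ENSG00000163739.5, chr4:73869393-73871308, plus strand) had its start in a region that reached from chr4:73868256 to 73869944. Its ranks were 89.7, 89.0 and 90.1 in the untreated libraries of the NaBu experiment and 86.3, 82.7 and 86.1 with NaBu. All treated values lay below all untreated ones, and the region fell by 4.57 points (SE 1.11, adjusted p = 0.024). The tags at its summit were 181, 119 and 146 without and 109, 100 and 111 with NaBu, a log2 change of −0.41 over background (SE 0.11, adjusted p = 0.00427). The call was lost when any 1 of the 3 untreated libraries was left out (adjusted p 0.0579 to 0.0797). In the NaPr experiment the ranks were 85.1, 83.6 and 84.9 without and 79.3, 86.8 and 84.0 with NaPr. These groups overlapped, and the difference of −1.18 (SE 1.96, adjusted p = 0.747) changed sign on the tag scale, where it was 0.22.

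A second CXCL1 region lay 1.4 kb upstream of the start, in intergenic sequence and 155 bases from the start region. No untreated NaPr-experiment library had a peak there, and the 3 NaPr libraries had ranks of 41.3, 53.2 and 46.8, from 9, 15 and 21 tags. With those untreated libraries at 0 the difference was 47.1 points (SE 11.7), and it was counted as called. As the region entered the test through its treated libraries, it had to differ. The difference was 25.6 with regions without a peak at the mean rank of their ties (adjusted p = 0.101), 12.4 when ranked among listed peaks (adjusted p = 0.222) and 30.3 with regions merged over the 6 lists of the experiment (adjusted p = 0.0991). With NaBu the ranks were 75.3, 72.1 and 68.0, against 47.0, 69.0 and 57.1 without. The lowest treated value lay below the highest untreated one, and the difference of 14.1 (SE 5.86, adjusted p = 0.119) was not called, while the tags gave a log2 change of 0.62 (SE 0.19, adjusted p = 0.0117).

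CXCL2 (ENSG00000081041.9, chr4:74097040-74099196, minus strand) had start-region ranks of 95.6, 93.0 and 93.4 without and 92.0, 92.7 and 92.5 with NaBu. The groups did not overlap, and the difference of −1.59 (SE 0.75, adjusted p = 0.138) was not called on ranks, while the tags fell by 0.37 on the log2 scale (SE 0.12, adjusted p = 0.0122). That was near the median log2 change of −0.33 at all start regions. With NaPr the ranks were 90.5, 91.9 and 93.8, against 93.1, 94.7 and 95.8 without, a difference of −2.47 (SE 1.05, adjusted p = 0.214). The intergenic region 10.5 kb upstream of CXCL2 moved the other way. It had ranks of 79.7, 79.2 and 80.6 without NaBu and 86.2, 89.4 and 86.7 with NaBu, with no overlap, and rose by 7.60 points (SE 1.14, adjusted p = 0.00353). Under NaPr the same region went from 86.0, 79.5 and 78.9 to 87.0, 86.0 and 88.3 (difference 5.66, SE 2.02, adjusted p = 0.144). The highest untreated value, 85.95, lay just below the lowest treated one, 86.02. On the tag scale with the background the region was called under both compounds, with log2 changes of 0.90 for NaPr (SE 0.27, adjusted p = 0.00973) and 0.67 for NaBu (SE 0.14, adjusted p = 0.000534). With the median tags as the scale the NaPr change was 0.65 (SE 0.19, adjusted p = 0.00634).

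CXCL3 (ENSG00000163734.4, chr4:74036589-74038807, minus strand) had start-region ranks of 97.1, 95.9 and 94.7 without and 95.1, 91.7 and 93.4 with NaBu. The groups overlapped, and the difference of −2.50 (SE 1.00, adjusted p = 0.11) was not called. Its tags were 353, 205 and 215 without and 184, 146 and 163 with NaBu, and on that scale the region fell by 0.56 (log2, SE 0.12, adjusted p = 0.000862). NaPr gave 93.3, 90.2 and 93.6, against 94.1, 91.3 and 93.8 without (difference −0.68, SE 1.15, adjusted p = 0.755; 0.10 on the tag scale with the background).

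CXCL8 (ENSG00000169429.12, chr4:73740519-73743716, plus strand), which encodes interleukin 8, had no peak at its start in any of the 6 NaPr-experiment lists. Its ranks in the NaBu experiment were 74.9, 73.7 and 74.4 without and 71.1, 64.5 and 60.6 with NaBu, from 28 to 54 tags. All treated values lay below all untreated ones, and the difference of −8.94 (SE 3.07, adjusted p = 0.0722) did not pass the threshold. Without treated replicate 1 it did (adjusted p = 0.0148), while leaving out any 1 of the other 5 libraries gave adjusted p 0.139 to 0.165. Joining intervals at 100 bp gave a difference of −1.22 (adjusted p = 0.99). CXCL8 was the weakest of the start regions of the 4 neutrophil chemokines in every library.

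CCL20 (ENSG00000115009.13, chr2:227805739-227817564, plus strand) encodes the ligand of CCR6, which draws dendritic cells and lymphocytes to the epithelium. No list had a peak within 1 kb of its canonical start, at chr2:227813842 in hg38, although this promoter held a κB match. Its 9 ranked regions lay 5.0 to 21.0 kb away, 2 of them with peaks in every NaBu-experiment list and in no NaPr-experiment list. Under NaBu, 18.4% rose and 13.7% fell of all tested regions that hold no protein-coding start. Of the 9 at CCL20, 3 rose, 1 of them called through its treated libraries alone, and none fell.

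The strongest of these, 5.0 kb downstream of the CCL20 start and beyond the gene's end, had ranks of 83.7, 86.1 and 81.4 without and 92.2, 92.3 and 92.1 with NaBu. The groups were well apart, and it rose by 8.47 points (SE 1.22, adjusted p = 0.00301). Its tags went from 132, 101 and 90 to 186, 196 and 195, a log2 change of 0.90 over background (SE 0.12, adjusted p = 5.36e-06). Ranked by fold enrichment the difference was 0.32 (adjusted p = 0.921), and in windows around summits it was 3.27 (adjusted p = 0.461). Under NaPr the ranks went from 55.1, 68.9 and 68.6 to 81.6, 78.4 and 63.9, which overlapped (difference 10.4, SE 5.98, adjusted p = 0.277). The tags there were 7, 19 and 22 without and 26, 27 and 24 with NaPr, a log2 change of 1.20 over background (SE 0.28, adjusted p = 0.000756). With the median tags as the scale it was 0.94 (SE 0.25, adjusted p = 0.00293).

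The region 8.8 kb downstream of CCL20 gave the largest called gain of any member region under NaBu when regions without a peak were ranked 0. It had no peak in the untreated libraries and ranks of 50.9, 45.2 and 70.4, from 53, 54 and 86 tags, with NaBu (difference 55.5, SE 8.03). As it entered the test through its treated libraries, it had to differ. With regions without a peak at the mean rank of their ties the difference was 34.7 (adjusted p = 0.00908). Ranked among listed peaks it was 30.1 (adjusted p = 0.0357), below the 32.7 of the CCL20 region 10.5 kb upstream. Among the NaPr-experiment lists only untreated replicate 3 had a peak there. The region 10.5 kb upstream of CCL20, in a processed pseudogene, had ranks of 54.4, 41.3 and 44.1 without and 61.7, 59.7 and 66.7 with NaBu (difference 16.1, SE 4.81, adjusted p = 0.0481). Its call was lost without any 1 library other than untreated replicate 1 (adjusted p 0.0826 to 0.133).

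NFKBIA and TNFAIP3 encode inhibitors that NF-kB itself induces. NFKBIA (ENSG00000100906.12, chr14:35401079-35404749, minus strand) makes IκBα, which binds the dimers. Its start-region ranks were 89.5, 90.8 and 87.0 without and 86.2, 84.2 and 81.1 with NaBu. All treated values lay below all untreated ones, and the difference of −5.28 (SE 1.60, adjusted p = 0.0502) missed the threshold, which it passed without treated replicate 1 (adjusted p = 0.0409). The tags were 221, 152 and 138 without and 114, 101 and 92 with NaBu, and their log2 change of −0.66 (SE 0.13, adjusted p = 0.000462) was the largest among the start regions of the NF-kB inhibitors and the neutrophil chemokines. NaPr gave 84.8, 80.9 and 81.0, against 83.8, 86.5 and 88.0 without (difference −3.87, SE 1.67, adjusted p = 0.22).

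TNFAIP3 (ENSG00000118503.18, chr6:137867214-137883314, plus strand) encodes A20, a ubiquitin-editing enzyme. Its start region, which also lies in an intron of the lncRNA WAKMAR2, was the only member start called in both experiments. The ranks were 98.1, 97.3 and 97.4 without and 95.1, 95.5 and 96.1 with NaPr, and it fell by 2.04 points (SE 0.47, adjusted p = 0.0406). In the other experiment they were 88.4, 85.8 and 88.4 without and 83.3, 77.5 and 82.0 with NaBu, and it fell by 6.58 points (SE 1.75, adjusted p = 0.0329). Neither pair of groups overlapped. The tags fell by 0.53 with NaBu (log2 over background, SE 0.13, adjusted p = 0.00178). With NaPr their change was −0.21 (SE 0.22, adjusted p = 0.603) with the background as the scale and −0.46 (SE 0.11, adjusted p = 0.000536) with the median. On the latter scale 44.9% of all 12161 start regions fell with NaPr, and their median log2 change was −0.27. The NaPr call was lost without any 1 library other than treated replicate 3 (adjusted p 0.0694 to 0.0861). The NaBu call was lost without any 1 untreated library or treated replicate 3 (adjusted p 0.0524 to 0.107). The untreated ranks themselves differed between the experiments, with means of 97.6 and 87.5, and date and depth cannot be told apart in this.

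RELB (ENSG00000104856.15, chr19:45001461-45038192, plus strand), the subunit of the non-canonical NF-kB pathway, had 15 regions in its window, of which 6 were ranked. The NaPr test covered 6 and the NaBu test 5, and 0 of these were called. Of all regions 5.16% rose and 4.1% fell under NaPr, and 17.1% and 14.5% under NaBu, so 0 of so few regions says little. The RELB start-region ranks were 98.1, 97.3 and 96.2 without and 97.7, 95.3 and 95.4 with NaPr (difference −1.07, SE 0.80, adjusted p = 0.42). They were 97.7, 96.0 and 95.6 without and 97.2, 95.9 and 96.9 with NaBu (difference 0.24, SE 0.66, adjusted p = 0.806; −0.14 on the tag scale with the background). RELB and BIRC3 were the starts with the highest minimum over the 12 libraries, 95.3 and 97.6.

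BIRC3 (ENSG00000023445.17, chr11:102317484-102339403, plus strand) encodes cIAP2, a ubiquitin ligase that acts downstream of TNF receptors. Its start region had ranks of 98.2, 97.8 and 97.6 without and 98.1, 98.1 and 98.2 with NaPr (difference 0.26, SE 0.36, adjusted p = 0.679). The ranks were 99.1, 99.5 and 99.4 without and 99.1, 99.3 and 99.2 with NaBu (difference −0.13, SE 0.21, adjusted p = 0.65). On the tag scale the start fell by 0.23 with NaBu (log2, SE 0.071, adjusted p = 0.0124). Ranks this near to 100 leave little room for a rise.

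Around BIRC3, 2 regions rose and 0 fell of the 8 tested under NaPr, beside 5.16% and 4.1% of all regions. Under NaBu 2 rose and 2 fell of 9, beside 17.1% and 14.5% of all. The NaPr gain at 28.8 kb and the NaBu loss at 9.9 kb entered the test through the higher group alone. The region 11.0 kb upstream, named after its values were seen because it was called in both, had ranks of 80.0, 81.4 and 76.2 without and 88.9, 93.8 and 87.6 with NaPr. It rose by 10.9 points (SE 2.05, adjusted p = 0.0296). With NaBu it went from 88.9, 87.9 and 90.8 to 94.2, 97.0 and 95.5 and rose by 6.36 points (SE 1.02, adjusted p = 0.00462). Neither pair of groups overlapped. The tags gave log2 changes of 1.38 for NaPr (SE 0.26, adjusted p = 1.72e-05) and 0.63 for NaBu (SE 0.11, adjusted p = 0.000189). With the median tags as the scale the NaPr change was 1.12. The NaPr call was lost by fold enrichment (adjusted p = 0.0646), in windows around summits (0.109), without a trend (0.106) and with a replicate block (0.104). The NaBu call passed in 19 of 20 alternatives, with a highest adjusted p of 0.34.

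The region 9.9 kb upstream of BIRC3, which began 231 bases beyond the one that rose, went the other way. It had ranks of 45.5, 65.9 and 54.9 without and 0, 0 and 40.0 with NaBu. With libraries without a peak at 0 the difference was −42.1 points (SE 12.6), the largest called loss of any member region, and it entered the test through its untreated libraries. It was −39.8 by fold enrichment (adjusted p = 0.0728) and −21.5 when ranked among listed peaks (adjusted p = 0.0883). It held no peak in the NaPr-experiment lists. The region 24.5 kb downstream of the start, past the end of the gene, had ranks of 75.6, 73.3 and 67.8 without and 78.7, 81.3 and 81.2 with NaBu and rose by 8.17 points (SE 2.34, adjusted p = 0.0423). Both calls were lost without most single libraries. The loss at 9.9 kb was called only without treated replicate 3 (adjusted p 0.0845 to 0.147 without any other library), and the gain at 24.5 kb only without untreated replicate 1 (adjusted p 0.0566 to 0.121).

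BIRC2, which encodes cIAP1, lies next to BIRC3, and its start fell within the BIRC3 window. The region 28.8 kb downstream of the BIRC3 start, in an exon of an unnamed lncRNA and 117 bases from the BIRC2 start region, gave the largest called gain of any member region under NaPr when regions without a peak were ranked 0. It had no peak in the untreated libraries and ranks of 63.4, 47.9 and 45.8 with NaPr, from 25, 25 and 38 tags (difference 52.4, SE 12.0). As it entered the test through its treated libraries, it had to differ. The difference was 30.9 with regions without a peak at the mean rank of their ties (adjusted p = 0.0678), 20.8 when ranked among listed peaks (adjusted p = 0.178), 41.4 by fold enrichment (adjusted p = 0.0613) and 38.2 with intervals joined at 100 bp (adjusted p = 0.247). In the NaBu experiment it had a peak in all 6 lists, with 69.8, 71.9 and 69.0 without and 65.3, 59.3 and 65.4 with NaBu (difference −6.91, SE 2.73, adjusted p = 0.105; log2 tags −0.57, SE 0.12, adjusted p = 0.000998). The region 30.8 kb downstream, in an intron of BIRC2 and also named after its values were seen, had ranks of 77.7, 87.1 and 82.9 without and 63.4, 62.8 and 54.5 with NaBu. It fell by 22.3 points (SE 3.60, adjusted p = 0.00469), and its tags fell from 170, 168 and 163 to 70, 69 and 60.

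IL18 (ENSG00000150782.12, chr11:112143253-112164096, minus strand) encodes a cytokine that epithelial cells make as an inactive precursor. The region nearest to its canonical start, 384 bases away and in the first part of the gene, had no peak in the NaPr-experiment lists. Its ranks were 86.0, 87.0 and 86.9 without and 74.2, 78.5 and 71.5 with NaBu, and it fell by 11.9 points (SE 1.90, adjusted p = 0.00446). The next region, 1.1 kb downstream of the start and 97 bases away, was also without a peak in the NaPr-experiment lists. It had ranks of 85.2, 81.6 and 84.1 without and 58.7, 65.3 and 60.9 with NaBu and fell by 22.0 points (SE 2.37, adjusted p = 0.00127). The groups were far apart at both. Tags fell from 104, 62 and 77 to 28, 35 and 32 at the second, a log2 change of −1.28 (SE 0.15, adjusted p = 2.23e-06), and by 0.91 on the log2 scale at the first (SE 0.14, adjusted p = 3.76e-05).

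The intron region 6.6 kb downstream of the IL18 start, whose summit window holds the AP-1 match printed above, rose in both experiments. The ranks were 88.3, 85.6 and 84.1 without and 95.4, 91.2 and 92.3 with NaPr (difference 6.98, SE 1.45, adjusted p = 0.0349). They were 93.0, 91.8 and 93.1 without and 96.3, 96.1 and 96.0 with NaBu (difference 3.51, SE 0.44, adjusted p = 0.00189). Neither pair of groups overlapped, and the tags rose by 1.00 for NaPr (log2, SE 0.25, adjusted p = 0.00196) and 0.42 for NaBu (SE 0.10, adjusted p = 0.00159). With the median tags as the scale the NaPr change was 0.74 (SE 0.16, adjusted p = 0.000355). Ranked by fold enrichment the difference was 3.38 for NaPr (adjusted p = 0.0686) and 0.13 for NaBu (adjusted p = 0.868). In limma without a trend the adjusted p was 0.176 for NaPr and 0.064 for NaBu. Within this gene, under NaBu, the 2 regions nearest to the start fell and the region 6.6 kb downstream rose.

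**Figure D2:**
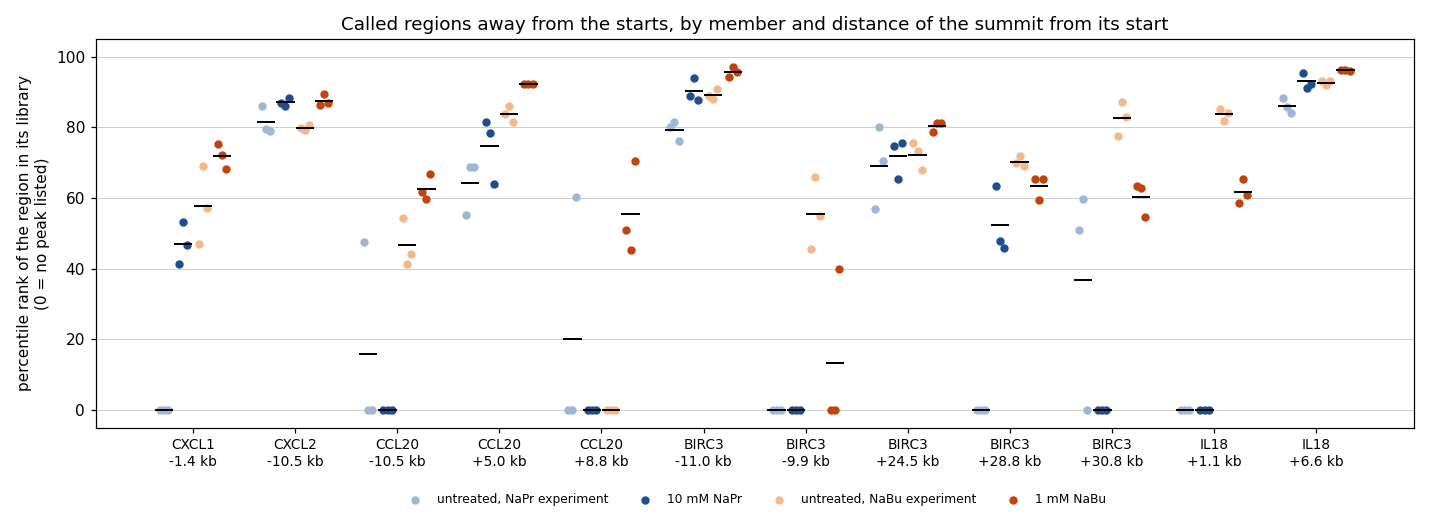
Percentile rank (vertical axis, 0 for no peak listed) in each of the 12 libraries of the 12 called regions away from the member starts, labelled by gene and distance of the summit from its start; every point is a library, black lines are means of 3, and colours are the 4 groups. The regions at −11.0 kb of BIRC3 and +6.6 kb of IL18 stood higher in all treated libraries of both experiments, and several others had no peak in a whole group.

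The NaPr calls at CXCL1, BIRC3 and TNFAIP3 were lost when any 1 library other than treated replicate 3 was left out (adjusted p 0.0525 to 0.0683 at CXCL1, 0.0526 to 0.0638 at 11.0 kb and 0.0513 to 0.066 at 28.8 kb of BIRC3), and that at IL18 was lost without any 1 of the 6 (0.0501 to 0.0947). Under NaBu, the calls at CXCL2, at 5.0 kb of CCL20, at 11.0 and 30.8 kb of BIRC3 and at the 3 IL18 regions held without any 1 library. Those at 5.0 kb of CCL20 and 6.6 kb of IL18 were lost when ranked by fold enrichment. The call at 8.8 kb of CCL20 also held without any 1 library. That region entered the test through its treated libraries alone and had to differ, so this adds no support.

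**Figure D3:**
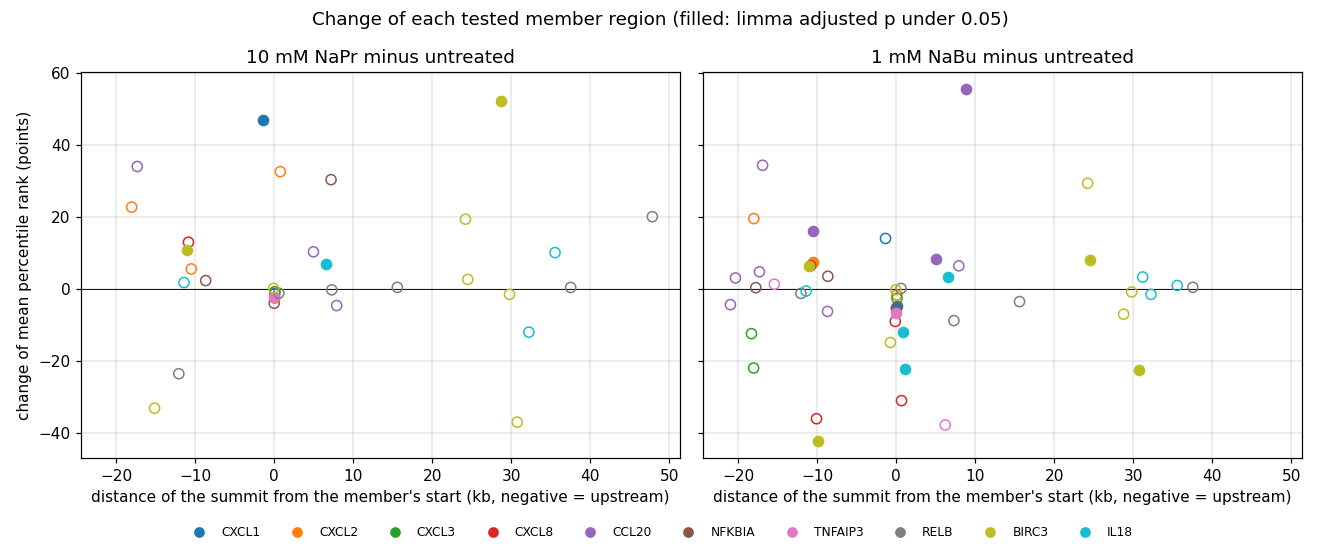
Difference of mean percentile rank, treated minus untreated (vertical axis, points), of every tested member region against the distance of its summit from the start of its gene (horizontal axis, kb), for 10 mM NaPr (33 regions) and 1 mM NaBu (48 regions); colours are genes and filled points were called. Differences at the starts stayed near 0 or below it, and the largest gains, 52.4 at BIRC3 under NaPr and 55.5 at CCL20 under NaBu, lay away from the starts and rest on a rank of 0 in the untreated libraries.

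Among the ranked member regions, 10 of 54 (18.5%) had a peak in all 6 NaBu-experiment lists and in none of the NaPr-experiment lists, beside 5.48% of all 167303 regions. They were the start of CXCL8, the region nearest to the IL18 start, 2 regions around CCL20, 2 more in the IL18 window, and one each at CXCL3, NFKBIA, TNFAIP3 and BIRC3. The opposite pattern was found at 0 member regions and at 1.99% of all. The pattern takes treated and untreated libraries together, and the date, the depth and the weakest p of the lists cannot be told apart in it.

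The share of a library's peak intervals that lay in the member windows used no ranks. It was 0.0291% ± 0.00476 (SD, n = 3) without and 0.0286% ± 0.000679 with NaPr, and 0.0450% ± 0.00353 without and 0.0432% ± 0.00379 with NaBu. In the exact two-sided permutation test p = 0.7 in each experiment, where 0.1 is the smallest p that 3 against 3 libraries allow.

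Other genes of the pathway were counted from 7 lists of 96 genes in the same windows, without the 8 regions shared with the members. Of 657 regions tested under NaPr, 32 rose (4.87%) and 45 fell (6.85%), and of 621 under NaBu, 95 rose (15.3%) and 113 fell (18.2%), against the background of all regions given above. The 4 other subunit genes (NFKB1, NFKB2, RELA and REL) had 1 region higher and 3 lower of 24 under NaPr, and 5 higher and 8 lower of 29 under NaBu. The start of NFKB1, which encodes the p50 precursor, fell by 4.91 points with NaPr (adjusted p = 0.024) and by 6.02 with NaBu (adjusted p = 0.0165).

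Among 10 further inhibitor genes, 5 regions rose and 7 fell of 84 under NaPr, and 20 rose and 13 fell of 92 under NaBu (21.7% and 14.1%). Kinases and adaptors had 10 higher and 12 lower of 185 under NaPr and 19 higher and 37 lower of 182 under NaBu (10.4% and 20.3%). The start of MYD88, the adaptor of Toll-like and IL-18 receptors, fell by 9.30 points with NaPr (adjusted p = 0.0447) and by 17.4 with NaBu (adjusted p = 0.0066). Receptors had 5 higher and 9 lower of 121 under NaPr (4.13% and 7.44%) and 15 higher and 22 lower of 102 under NaBu (14.7% and 21.6%). Of all regions, 5.16% rose and 4.1% fell under NaPr, and 17.1% and 14.5% under NaBu.

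The 15 other chemokine genes had 4 regions higher and 2 lower of 62 under NaPr, and 9 higher and 6 lower of 54 under NaBu. CXCL16, a membrane-bound chemokine, had a start that fell by 4.40 points with NaPr (adjusted p = 0.0343) and by 12.8 with NaBu (adjusted p = 0.0136). CCL2, which attracts monocytes, had a start that rose by 43.8 points with NaBu (adjusted p = 0.00226) and differed by −2.49 with NaPr (adjusted p = 0.988). Its ranks by library are not given here, and a rank of 0 for libraries without a peak can make a difference this large. Other target genes had 6 higher and 11 lower of 164 under NaPr (3.66% and 6.71%) and 27 higher and 23 lower of 148 under NaBu (18.2% and 15.5%). Genes of IL-18 processing had 1 higher and 1 lower of 17 under NaPr (5.88% each). Under NaBu they had 0 higher and 4 lower of 14 (0% and 28.6%), beside 17.1% and 14.5% of all regions. Other starts in these lists were called higher. Among them were BCL3 (5.38 points, adjusted p = 0.00897) and CXCR4 (8.79, adjusted p = 0.0138) under NaBu and PTGS2 (6.14, adjusted p = 0.0386) under NaPr. The starts of RELA and REL were not called in either experiment. The genes named from these lists were chosen after their values were seen.

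**Figure D4:**
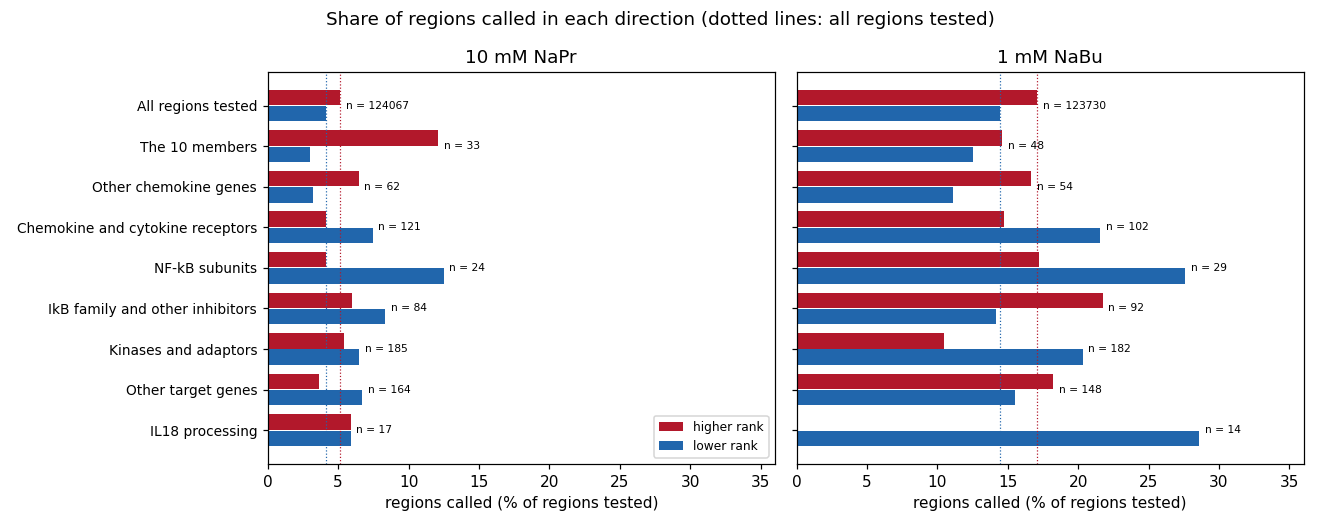
Regions called higher (red) and lower (blue) in rank as a percentage of the regions tested (horizontal axis) for all regions, the 10 members and 7 lists of other pathway genes, with the number tested beside each pair of bars; the panels are 10 mM NaPr and 1 mM NaBu, and dotted lines mark the shares of all regions. The members stood at 12.1% higher under NaPr, from 4 of 33 regions, and at 14.6% higher and 12.5% lower under NaBu, near the dotted lines.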

How the data were processed

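Omni-ATAC libraries of 12 SW480 samples were analysed; the 8 CT26 libraries were not used here. Per the labels, the authors processed reads with bcl2fastq 2.17.1, cutadapt 1.9.1, Bowtie2 2.3.1 and MACS2 2.1.0 and name the build hg38. The deposited peak lists, called per library, give for each summit a fold enrichment (ratio over local background), a −log10 p and a −log10 q (q-value). Each holds 299022 to 299463 summit lines, so weak peaks end at a different p in each list. 

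Intervals of the 12 lists were merged at 1 bp overlap and assigned to genes with GENCODE 44. Ranks were fitted with limma 3.58.1 (R 4.3.3, moderated variance with a trend, two-sided) for each experiment, treated against untreated, with Benjamini-Hochberg adjustment over all regions tested. Tags came from solving fold and p under a Poisson model, which succeeded for 100% of summits. For each member the text gives the start region (over the canonical start, or the nearest within 1 kb) and its called regions, all up to 4 and otherwise the largest gain and loss in each experiment. The members and gene lists were chosen with earlier results of these data known. Scripts were tested on simulated data. Python 3.11.15, pandas 2.3.3, scipy 1.17.1 and pysam 0.24.0 were used.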

Additional observations from a re-analysis of the deposited data

How the results depend on the processing

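The results were recomputed under other choices, 1 at a time, except that the tag scales also need a peak in all 6 lists (19 and 38 regions tested) and that the alternative without the shallowest libraries drops 2 at once. No called member region changed its sign. The NaBu calls 10.5 kb from CXCL2, 30.8 kb from BIRC3 and at both regions near the IL18 start passed in all 20 alternatives. The call 8.8 kb from CCL20 passed in all 16 in which it could be fitted. This was largely set in advance, as that region entered the test through its treated libraries alone. The NaPr count of 4 higher regions became 2 with windows of 5 kb, with regions without a peak at the mean rank of their ties, with a peak in at least 1 or in all 6 lists, with the top 50000 intervals, with regions merged over the 6 lists of the experiment and in limma without a trend, and 1 when ranked by fold enrichment. The NaPr count of 1 lower region became 0 when ranked among listed peaks, with a peak in at least 1 list, on tags over background and without a trend, 2 with a peak in all 6 lists, and 5 on tags over their median. Leaving out 1 library gave 0 to 5 higher and 0 to 1 lower, and leaving out the shallowest library of both NaPr groups, an alternative chosen after seeing the data, gave 0 and 0. In limma 0 of all 124067 regions were called without any 1 library other than treated replicate 3 (25342 to 27084 at an unadjusted p under 0.05) and without the shallowest libraries (28493), while 8170 were higher and 5321 lower without that one.

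The NaBu count of 7 higher became 15 with windows of 50 kb, and 4 when ranked by fold enrichment, with the top 50000 intervals and without a trend. The count of 6 lower became 12 with windows of 50 kb, 14 on either tag scale and 3 without a trend. Leaving out 1 library gave 5 to 8 higher and 3 to 7 lower, with 3 lower without untreated replicate 2 or untreated replicate 3. Same-numbered libraries had correlations of deviations of 0.00488 to 0.0483, and different-numbered ones of −0.0377 to 0.0202. These values cannot show whether the libraries were paired, and the main fits used no pairing. With the replicate block 0 regions were higher and 0 lower under NaPr, where 0 of all 124067 were called in limma (25786 at an unadjusted p under 0.05), and 5 and 6 under NaBu, where 18571 and 15637 of all 123730 were.

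Start regions that were not called changed sign as follows, and the cause was not tested. BIRC3 under NaPr was −1.12 when ranked by fold and −0.042 on tags over their median. CXCL1 under NaPr was 0.22 on tags over background, −2.9 to 0.87 when 1 library was left out (0.87 without treated replicate 1) and 1.17 without the shallowest libraries. CXCL3 under NaPr was 0.10 on tags over background and −1.58 to 0.39 when 1 library was left out (0.39 without treated replicate 2). NFKBIA was 25.5 under NaPr and 20.1 under NaBu with intervals joined at 100 bp. RELB under NaBu was −0.29 by fold, −0.14 on both tag scales, −0.032 without treated replicate 1 and −0.16 without untreated replicate 3. The differences in the share of intervals, −0.000538 and −0.00179 percentage points, became 0.00185 without untreated replicate 3 of the NaPr experiment (range −0.00291 to 0.00185), 0.00032 for NaPr and 0.000111 for NaBu when summit lines were counted, and for NaBu 5.03e-05 with 5 kb and 0.000125 with 50 kb. Leaving out 1 NaBu library gave −0.0038 to −4.32e-05.

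The lists hold no reads and end at different p-values, so a region without a peak is below a limit that differs between libraries, and the tag numbers cover counting error at a summit only.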
